A study of Mus musculus with 3 samples.

Results

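Neutrophils of the naive left lung and of the lung 3 days after transplantation were chosen by the share of their RNA taken by 6 neutrophil genes. A cell entered if S100a8, S100a9, Il1b, Csf3r, Cxcr2 and Retnlg together held at least 2% of its unique molecular identifiers (UMIs, each one counted mRNA molecule). It also had to hold at most 2 UMIs of the lymphocyte genes Cd79a, Cd79b, Cd3d and Cd3e, and less than 0.05% of its UMIs from the monocyte genes Ly6c2, Vcan and F13a1. The rule selected 2577 of the 10746 cells that passed quality filters in these 2 libraries, 341 from the naive lung and 2236 from the 3 d lung. Since the cells were selected on measured RNA, the levels of these 6 genes are given as a description.

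Neutrophils are short-lived granulocytes made in the bone marrow, which load primary, specific and gelatinase granules in that order as they mature. Mature cells circulate, linger in the small vessels of the lung, and enter injured tissue under the guidance of chemokines, where they release granule proteins, oxidants and further chemokines. In lung ischemia reperfusion injury they are the best known effector cells of early tissue damage.

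Single-cell RNA sequencing was performed on 3 libraries from mice labelled C57BL/6J, each pooled from 2 mice. The naive library came from left lungs of mice that had no operation. In the transplant libraries, a left lung from a CD45.2 donor was placed in a CD45.1 recipient after 60 min of cold storage at 4 °C and 45 min of warm ischemia at 28 °C, and was harvested after 2 h or 3 days of reperfusion. The study's methods give CD45.1 mice as the congenic strain B6.SJL-Ptprca Pepcb/BoyJ, so that strain of origin may also separate naive from transplant neutrophils. Recipient CD45.1+ cells were sorted, so that in the transplanted lungs these neutrophils had come from the recipient. The design states the same sort for the naive library, whose mice had received no second set of cells, and neither labels nor methods say which cells that gate took there. The 3 d library thus differed from the naive one in operation, ischemia, reperfusion and, by the sort, in the entry of cells after transplantation, and these cannot be told apart. With 1 library per condition there was no replicate and no test of a difference was possible. Intervals below are 95% intervals that cover counting error only.

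The naive library held 2921 cell barcodes and 28538529 UMIs, the 2 h library 10328 and 10749100, and the 3 d library 9016 and 70750470. Neutrophils made up 14.1% of kept cells in the naive library (exact binomial interval 12.7 to 15.5%), 39.7% at 2 h (38.8 to 40.7%) and 26.9% at 3 d (25.9 to 27.8%). These shares follow the sort and the number of other cells as well as the number of neutrophils. A naive neutrophil held a median of 5592 UMIs and 1620 genes, and a 3 d neutrophil 4446.5 UMIs and 1431 genes. The 2 h neutrophils, chosen by the same rule and used only for comparison, were far shallower, with 759 UMIs and 366 genes. Their summed UMIs were 2029253 in the naive, 3707008 in the 2 h and 10620957 in the 3 d library. Levels below are UMIs summed over the neutrophils of a library per 1000000 such UMIs (CPM).

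The labels name both a 5′ and a 3′ kit without saying which library used which, so that the chemistry may also differ between libraries. The libraries differed in how they were counted. File headers name Cell Ranger 7.1.0 for the naive and 6.0.0 for both transplant libraries, and the earlier release leaves intronic reads out by default while the later one counts them. Neither labels nor methods say whether introns were counted, but the ratio of 3 d to naive neutrophils ran with the intronic length of genes. Its median was 0.40 on the log2 scale over 238 genes without introns, 0.33 over 1391 genes with up to 5 kb of introns and 0.23 over 2314 genes with 5 to 20 kb. It was -0.07 over 2945 genes with 20 to 100 kb and -0.86 over 796 genes with over 100 kb. T cells of the same libraries showed the same order, from 0.31 to -1.01, whereas the ratio of 3 d to 2 h neutrophils, from libraries counted with 1 release, lay between 0.09 and 0.18 in all 5 classes. Counting release and condition cannot be told apart in the naive comparison. T cell ratios, as log2 ratios of CPM plus 10, are therefore given for some lists and for most genes that passed 2-fold. The added 10 pulls the ratios of genes that are low in T cells toward 0. Gm42418, a gene that overlaps ribosomal RNA, took 0.558% of neutrophil UMIs in the naive, 5.50% in the 2 h and 2.01% in the 3 d library.

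**Figure D1:**
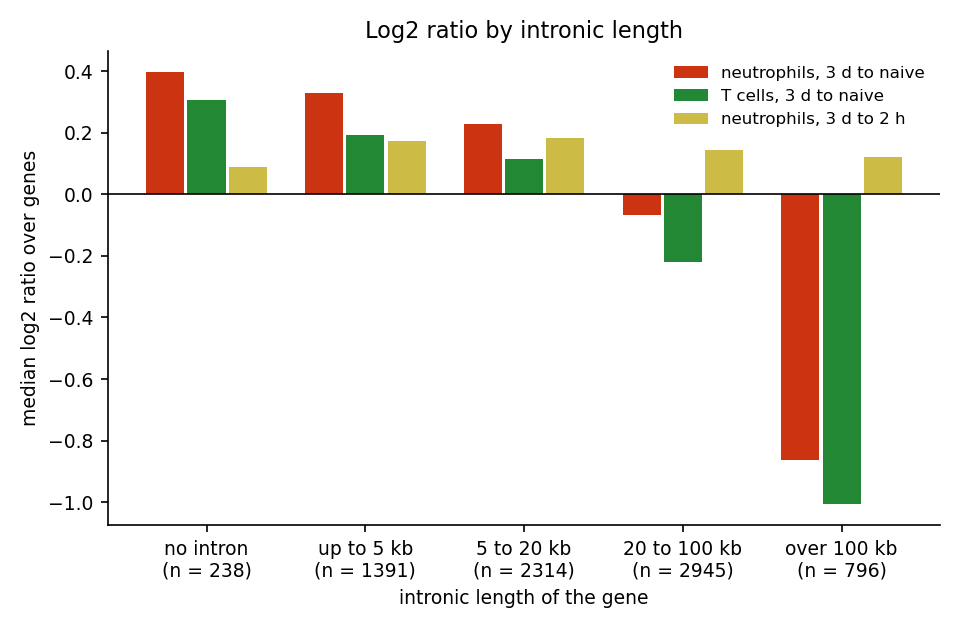
Median log2 ratio of CPM plus 10 (vertical axis) over tested genes grouped by intronic length (horizontal axis), for neutrophils 3 d to naive, T cells 3 d to naive and neutrophils 3 d to 2 h. The naive ratios run from 0.40 to -0.86 in neutrophils and from 0.31 to -1.01 in T cells, and the bars for 3 d to 2 h stay between 0.09 and 0.18.

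Marker genes outside the rule describe the chosen cells. They were picked in these same libraries by their ratio to other kept cells, so their height does not test the label. By the rule for marker genes, Cstdc4 and Stfa2l1 (protease inhibitors of the stefin A group), Asprv1 (a skin-type aspartic protease), Mmp9 (gelatinase B), G0s2, H2-Q10, Il1r2 (the decoy receptor for interleukin 1), Il1f9 (interleukin 36 gamma), Hdc (histidine decarboxylase) and Acod1 (which makes itaconate) stood furthest above the other kept cells in both libraries, beside 5 of the 6 rule genes. Cstdc4 stood at 718 CPM in naive neutrophils against 6.39 in the other naive cells, and at 1533 against 42.9 at 3 d. Csf3r, the receptor for granulocyte colony-stimulating factor, was detected in 99.7% of naive and 98.6% of 3 d neutrophils. S100a8 stood at 42160.0 CPM in naive, 13673 in 2 h and 53741 in 3 d neutrophils, and S100a9 at 51457, 22945 and 76517, the levels on which the cells were chosen.

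Some cells lay near the limit. In the naive library 23 cells had 2 to 3% of UMIs on the rule genes and 23 otherwise eligible cells had 1 to 2%, against 130 and 240 in the 3 d library. Cells just inside the limit at 3 d held 5465 CPM of S100a8 and 9176 of Il1b, and cells just outside held 1435 and 9404. These levels are set by the rule itself. S100a8 and S100a9 together were under 2% of UMIs in 25 naive (7.33%) and 166 3 d neutrophils (7.42%). At least 3 UMIs of macrophage genes were found in 15 naive (4.40%) and 259 3 d neutrophils (11.6%), and at least 3 UMIs of nonclassical monocyte markers in 29 (8.50%) and 86 (3.85%). Scrublet called 3 naive, 127 2 h and 37 3 d neutrophils doublets. No barcode of a naive neutrophil recurred as a neutrophil in another library, and 1 barcode was shared by neutrophils of the 2 h and 3 d libraries.

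Over the 7685 genes with at least 50 UMIs in both libraries together, 166 (2.16%) were at least 2-fold higher in 3 d than in naive neutrophils and 668 (8.69%) at least 2-fold lower, on the scale of CPM plus 10. The median log2 ratio over all of them was 0.11. The genes furthest up were Fn1, Saa3, Igfbp6, Wfdc17, Cstdc5, Steap4, Ifitm1, Il6, Ccl3 and Ccl4, of which Fn1, Saa3, Wfdc17, Ifitm1 and Il6 had ratios of at least 2-fold in T cells as well, and among those furthest down were Cmss1, Lrmda, Gphn, Alcam and Sik3. Of the lower genes, 625 (93.6%) had more than 20 kb of introns, against 33 (19.9%) of the higher ones. In T cells 141 of 9833 tested genes (1.43%) were higher and 982 (9.99%) lower by the same rule. In neutrophils, 9.66% of genes without introns rose and 0.420% fell, against 4.46 and 0.863% of genes with up to 5 kb, 2.07 and 1.30% with 5 to 20 kb, 1.12 and 9.20% with 20 to 100 kb, and 0 and 44.5% with over 100 kb. Short genes thus rose more often and fell less often than all genes together, and lists of short genes are to be read against the shares of their own length.

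**Figure D2:**
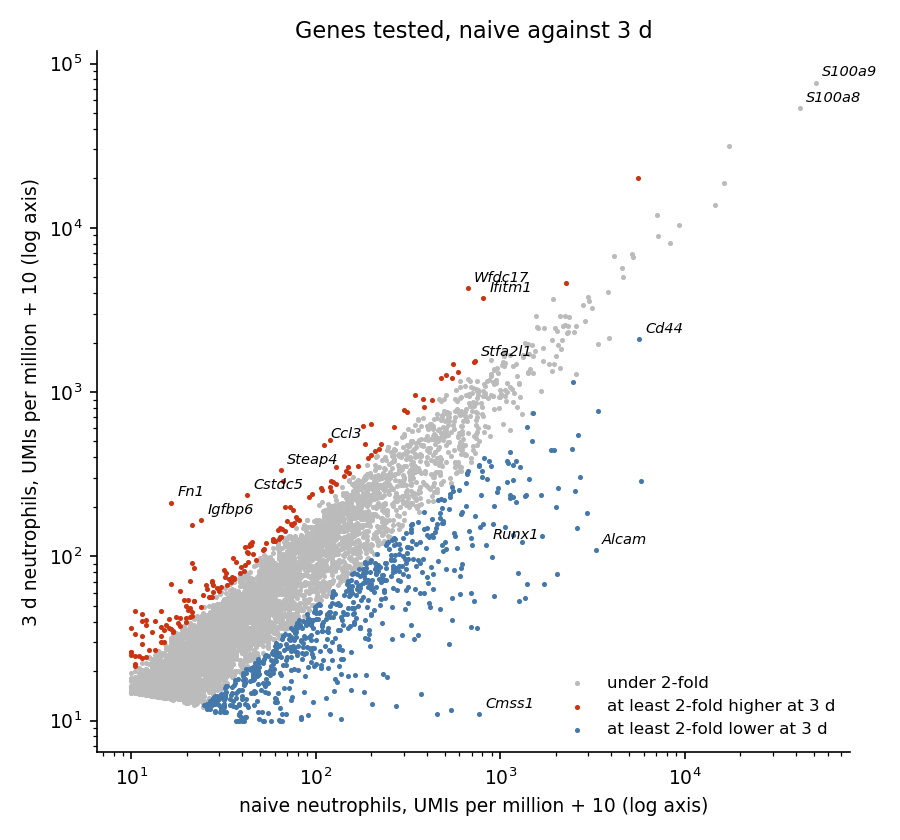
Each point is 1 tested gene, with CPM plus 10 in naive neutrophils (horizontal, log axis) against 3 d neutrophils (vertical, log axis), in red where at least 2-fold higher at 3 d (166 genes) and in blue where at least 2-fold lower (668 genes). Wfdc17 and Ifitm1 stand out among abundant genes above the diagonal, and Alcam, Runx1 and Cmss1 below it, while S100a8 and S100a9, on which cells were chosen, lie at the top right.

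Of 34 interferon-response genes tested 1 rose 2-fold, Ifitm1, and none fell, a share near the 2.16% of all genes that rose. The Ifitm genes encode membrane proteins that hinder the entry of viruses. Ifitm1 (chr7:140967221-140969825, mm10) stood at 795 CPM in naive neutrophils (757 to 835), 521 at 2 h (498 to 545) and 3716 at 3 d (3679 to 3753). The log2 ratio of 3 d to naive was 2.22 (2.15 to 2.30). Ifitm1 was thus over 4-fold higher at 3 d than in either other library. Ifitm2 stood at 1931, 2459 and 3690.4 CPM in the naive, 2 h and 3 d libraries, and Ifitm3 at 664, 546 and 934. Both ratios to naive, 0.93 and 0.49 on the log2 scale, stayed under 2-fold, whereas in T cells, at far lower levels, they were 2.31 (16.5 to 122 CPM) and 2.14 (26.05 to 149). Isg15, a ubiquitin-like protein, ran the other way at 641, 477 and 406 CPM, and Rsad2 (viperin) stood at 180.4, 66.6 and 108. The summed list rose from 6682 to 11293 CPM (log2 ratio 0.76), while its median member had -0.07, so that the sum followed the Ifitm genes.

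In T cells Ifitm1 went from 2.98 to 49.8 CPM. On the scale of CPM plus 10, which understates ratios of low genes, the log2 ratio was 2.20 in T cells and 2.21 in neutrophils, so that the ratio was as high in T cells, although the levels differed. After thinning every cell to 500 UMIs, Ifitm1 was found in 22.9% of naive (18.5 to 27.7%), 18.8% of 2 h (17.6 to 20.1%) and 63.1% of 3 d neutrophils (61.1 to 65.1%), and unthinned in 64.5, 26.9 and 89.7%. In T cells the thinned share was 0 of 495 naive cells (exact upper limit 0.742%) and 2.33% of 900 cells at 3 d, and the unthinned share 2.83 and 22.1% at a median of 9864 and 8228 UMIs per cell. Ifitm1 at 3 d was therefore spread over most neutrophils and lay well above the share in T cells. The 10% of 3 d neutrophils with most Ifitm1 held 34.3% of its UMIs.

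Promoters of 3 of these genes are shown because Ifitm1 parted from its neighbor Ifitm3 and from Isg15. Each is the RefSeq sequence of GRCm38.p6 from 250 bases before to 50 bases after the start of the gene, and capitals mark every match to GAAANNGAA or its reverse complement TTCNNTTTC, the core of the interferon-stimulated response element. The matches in Isg15 overlap each other.
Ifitm1: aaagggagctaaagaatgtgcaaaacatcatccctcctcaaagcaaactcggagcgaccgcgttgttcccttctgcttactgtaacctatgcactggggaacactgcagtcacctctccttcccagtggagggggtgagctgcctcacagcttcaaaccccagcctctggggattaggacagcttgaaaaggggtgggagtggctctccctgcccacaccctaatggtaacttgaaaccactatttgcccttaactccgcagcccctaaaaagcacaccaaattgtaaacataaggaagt
Ifitm3: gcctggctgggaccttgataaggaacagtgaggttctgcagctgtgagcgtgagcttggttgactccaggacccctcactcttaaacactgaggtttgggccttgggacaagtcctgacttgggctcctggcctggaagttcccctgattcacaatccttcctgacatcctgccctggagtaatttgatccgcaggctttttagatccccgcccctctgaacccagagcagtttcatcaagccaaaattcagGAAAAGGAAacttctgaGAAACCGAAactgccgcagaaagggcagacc
Isg15: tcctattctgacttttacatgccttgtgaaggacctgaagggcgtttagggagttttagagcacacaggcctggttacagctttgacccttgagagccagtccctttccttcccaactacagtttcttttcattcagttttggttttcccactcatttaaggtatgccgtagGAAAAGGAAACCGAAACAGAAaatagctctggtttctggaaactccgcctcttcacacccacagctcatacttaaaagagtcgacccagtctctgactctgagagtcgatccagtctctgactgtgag
They lie at chr7:140967826-140968125 on the plus strand (Ifitm1), chr7:141010695-141010994 on the minus strand (Ifitm3) and chr4:156200769-156201068 on the minus strand (Isg15). The Ifitm1 window held 0 matches, that of Ifitm2, not printed, held 1, that of Ifitm3 held 2 and that of Isg15 held 3. The motif was found in 2812 of all 32851 promoters (8.56%), against 17 of the 30 interferon-response genes with an entry (56.7%). The RefSeq start of Ifitm1 lies within the longer GENCODE gene model given above, so its window does not show the bases before the start of that model. A match describes letters in the window, and the absence of a match says only that these letters are not there.

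Genes of neutrophil identity outside the rule are given next. Of 22 tested, 5 rose 2-fold and none fell, against 2.16 and 8.69% of all genes and 4.46 and 0.863% of those with up to 5 kb of introns, with a median log2 ratio of 0.33 against 0.11 over all genes tested. The same list had a median of 0.83 in T cells, where its sum went from 225 to 599.8 CPM against 25358 and 30792 in neutrophils. Wfdc17 (chr11:83703991-83706268), a small secreted protein with a whey acidic protein domain, stood at 654 CPM (619.7 to 691) in naive, 312 (294 to 330.1) in 2 h and 4298 (4259 to 4338) in 3 d neutrophils. Its log2 ratio to naive was 2.72 (2.64 to 2.80). It was among the most abundant genes that rose, and its thinned share of positive cells went from 15.5% in the naive and 10.6% in the 2 h to 68.3% in the 3 d library, against 0, 0.160 and 1.0% in T cells. In T cells Wfdc17 went from 5.77 to 52.7 CPM, a log2 ratio of CPM plus 10 of 1.99 against 2.70 in neutrophils. The added 10 lowers the ratio at the low T cell level far more, so that the order of these ratios depends on it. Its relative Wfdc21 rose from 547 to 1478 CPM, Lrg1 (a secreted leucine-rich glycoprotein) from 335 to 944, Stfa2l1 from 714 to 1519, and Ly6g, the antigen of the usual neutrophil antibody, from 34.5 to 108. For these last 4 genes T cells stayed below 9 CPM in both libraries. In classical monocytes Wfdc17 went from 349 to 1300 CPM, Wfdc21 from 0 to 146 and Lrg1 from 1.77 to 140. At 3 d monocytes held 3.32 CPM of Stfa2l1 and 0.158 of Ly6g. With the T cell ratio subtracted Lrg1 had 0.63 and Stfa2l1 0.78, and after thinning Ly6g had 0.87, all under 2-fold. The thinned shares of Ly6g, 2.05% (0.83 to 4.18%) in naive and 3.85% (3.09 to 4.73%) in 3 d neutrophils, had overlapping intervals. Il1r2 and G0s2 lay lower at 3 d, at 3857 to 2121 and 2085 to 1395 CPM, both short of 2-fold.

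The stefin A genes, which encode inhibitors of cathepsins and lie side by side on chromosome 16, rose together. Stfa1 went from 56.7 to 276 CPM, Stfa2 from 6.41 to 57.9, Stfa3 from 1.97 to 31.0 and Cstdc5 from 32.5 to 226. Stfa2l1 and Cstdc4, the abundant members, went from 714 to 1519 and from 718 to 1533. All 6 passed 2-fold, the abundant pair only just, with a log2 ratio of 1.08 each. A seventh gene, Cstdc6, had 0 UMIs in naive and 10 in 3 d neutrophils. The 7 genes summed to 1529 CPM in naive, 1785 in 2 h and 3643 in 3 d neutrophils, a log2 ratio of 3 d to naive of 1.25 (1.20 to 1.31), and to 0.795 and 6.37 CPM in naive and 3 d T cells. Their transcripts resemble each other. Of the 50-base stretches in the annotated transcripts of Cstdc5, 25.1% also occur in another gene, against 24.6% for Stfa2l1, 22.5% for Stfa1, 10.98% for Cstdc4 and 0% for Stfa3, so the split of UMIs between members other than Stfa3 is uncertain and the sum is firmer. The wider list of S100, stefin and annexin genes had 7 of 14 rising and 1 falling. Of all genes 2.16 and 8.69% did so, and 4.46 and 0.863% of those with up to 5 kb of introns. The 7 included the 6 stefin genes above, which given their shared sequence are not all separate findings. The median log2 ratio was 0.98, and 0.23 in T cells. No stefin gene exceeded 2.50 CPM in naive or 3 d T cells, where the added 10 holds ratios near 0. S100a6 and S100a11, calcium-binding proteins without a part in the rule, went from 5234 to 6658 and from 5138 to 6958 CPM. S100a4 made the seventh riser, at 37.5 to 84.9 CPM, and Anxa3, an annexin, fell from 98.1 to 24.95, with T cell ratios of 0.96 and 0.73.

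Of 26 cytokines and chemokines tested 10 rose 2-fold and none fell, where 2.16% of all genes but 4.46% of those with up to 5 kb of introns and 9.66% of those without introns rose, with a median log2 ratio of 0.43 against 0.58 for the same genes in T cells, and their sum was 7251 CPM in naive, 30346 in 2 h and 10691 in 3 d neutrophils. Ccl3 stood at 101 CPM (87.2 to 115) in naive, 436 (415 to 458) in 2 h and 468 (455 to 481) in 3 d neutrophils. Ccl4, a closely related chemokine encoded nearby, stood at 109, 1260.3 and 502 CPM. Both thus stayed above naive at 3 d, while Ccl4 was lower than at 2 h. The log2 ratios to naive were 2.22 (2.02 to 2.43) and 2.21 (2.01 to 2.41). T cells went from 3.58 to 14.0 CPM for Ccl3 and from 10.3 to 18.5 for Ccl4. Their ratios on the scale of CPM plus 10 were 0.82 and 0.49, which the added 10 lowers at such levels. On that scale neutrophils had 2.11 for Ccl3 and 2.11 for Ccl4. With the rule genes at 5% or more these fell to 1.47 and 1.32, still past 2-fold. Cxcl2, a ligand of CXCR2 and the most abundant of the list, stood at 2259, 19517 and 4627 CPM, and Cxcl3 at 66.5, 2295 and 149.6. Their 2 h levels thus towered over both others. Their log2 ratios of 3 d to naive, 1.03 and 1.06 in neutrophils, were 1.30 and 1.22 in T cells. Tnf stood at 84.8, 76.9 and 229.7 CPM, highest at 3 d, with a T cell ratio of 3 d to naive of 0.08. Its UMIs were found in 26.4% of naive and 20.8% of 3 d neutrophils, and after thinning in 5.28% (3.16 to 8.21%) and 6.53% (5.54 to 7.63%). The share of cells with Tnf thus did not clearly rise from naive. Il6 was counted as 1 UMI in naive neutrophils and stood at 36.7 CPM at 3 d, a log2 ratio of 6.22 (3.73 to 11.5), and 13.4 CPM in 3 d T cells. Its UMIs were found in 6.80% of 3 d neutrophils and 6.44% of 3 d T cells, and after thinning in 1.43 and 0.222%. The unthinned shares were thus close, at a median of 4446.5 UMIs per neutrophil and 8228 per T cell. Il1f9 rose from 209.9 to 438 CPM and Ccl9 from 11.8 to 75.4, the latter also from 9.55 to 47.5 in T cells. With the T cell ratio subtracted Il1f9 had 0.78 and Ccl9 0.41, both under 2-fold. Il1f9 was also under 2-fold with the rule genes at 5% or more (0.91). Cxcl1 and Ccl2 completed the 10, at 4.44 to 36.5 and 3.45 to 30.6 CPM, with T cell ratios of 1.26 and 1.51 against 1.69 and 1.59. Il1rn, the interleukin 1 receptor antagonist, stood at 733 CPM in both, and Osm, Csf1 and Vegfa stayed within 2-fold.

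Few granule genes passed 2-fold, in lists too short to set apart from the 2.16% of all genes that rose and the 8.69% that fell. Of the primary granule genes, transcribed in bone marrow precursors, Mpo, Elane, Prtn3 and Ctsg were all below 4 CPM in each library, so that transcripts typical of precursors were close to 0. Lyz2, also listed there but expressed by all myeloid cells, stood at 1530.1 CPM in naive and 1756 in 3 d neutrophils. Of 10 specific granule genes 1 rose, Olfm4 from 9.86 to 39.7 CPM, and the median log2 ratio was 0.08. Lcn2 (lipocalin 2, which binds bacterial siderophores) stood at 564 CPM in naive, 1269.5 in 2 h and 1023 in 3 d neutrophils. Mmp8, the neutrophil collagenase, stood at 342, 1430.0 and 327 CPM, and Ngp at 39.4, 261 and 19.2. For these 3 genes the 2 h library was thus the highest. Of the 80 naive Ngp UMIs 1 cell held 62. No gelatinase granule gene of 9 tested passed 2-fold, with Mmp9 at 957 and 1289.5 CPM. The 9 subunits and regulators of the NADPH oxidase, which makes superoxide, held 1 riser, the chaperone Cybc1 at 17.2 to 46.3 CPM, while the core subunit Cybb stood at 95.1 and 124. Cybc1 was under 2-fold with the T cell ratio subtracted (0.61), with the median ratio subtracted (0.94) and with CPM plus 50 (0.52).

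Counts among receptors are to be read against the 2.16% of all genes that rose and the 8.69% that fell. None of 16 chemoattractant receptors tested passed 2-fold, among them Cxcr4, which guides return to the marrow, at 982 and 1014 CPM, and Ccrl2 at 322 and 493. None of 17 pattern recognition genes passed either, with Tlr4 at 154.7 and 86.3 CPM. Of 20 cytokine receptors Csf2rb2 rose from 17.7 to 50.7 CPM, and Tgfbr1 and Il1rap fell, from 340.5 to 77.9 and from 789 to 322 CPM. The 3 genes have 18475 (Csf2rb2), 55176 (Tgfbr1) and 137054 (Il1rap) bases of introns, and T cell ratios of 0.51, -1.02 and -0.69. Of 20 Fc and inhibitory receptors Fcgr3, an activating receptor for IgG, rose from 199.1 to 425 CPM and Fcgr2b, its inhibitory relative, from 4.44 to 22.5. The T cell ratio of Fcgr3, 1.20, was above the 1.06 in neutrophils, and that of Fcgr2b was 0.87 against 1.17. Cd101, a glycoprotein used to mark mature neutrophils, fell from 272.5 to 76.8 CPM, with 33.4 at 2 h, a T cell ratio of -0.44 and 32698 bases of introns. Of 14 adhesion genes tested 1 fell, Cd44, the hyaluronan receptor with 83749 bases of introns, at 5657, 784 and 2095 CPM in the naive, 2 h and 3 d libraries. In T cells Cd44 stood at 153 and 167 CPM. Itgam, Itgb2 and Selplg, which serve rolling and firm adhesion, stood at 732 and 618, 637 and 699.8, and 676 and 1154 CPM. None of these 3 passed 2-fold.

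Immediate-early genes, which respond within minutes to stimulation and also to tissue dissociation, held 5 risers of 19 and none that fell, against 2.16 and 8.69% of all genes and 4.46 and 0.863% of those with up to 5 kb of introns. Fos rose from 292 to 771 CPM, Klf6 from 369 to 892, Klf2 from 254 to 604, Jun from 109 to 255 and Atf3 from 182 to 386, while at 2 h Fos stood at 1760.2. The T cell ratios were 0.64 for Fos, 0.34 for Klf6, -0.01 for Klf2, 0.44 for Jun and 0.49 for Atf3. With these subtracted Fos had 0.74, Klf6 0.91, Jun 0.71 and Atf3 0.55, all under 2-fold, and after thinning Jun had 0.64. Of 18 NF-kB genes 3 fell, where 8.69% of all genes did, Nfkb1 from 956 to 249 CPM, Tnip1 from 202 to 76.5 and Relb from 175 to 81.9, with 94832, 48594 and 19337 bases of introns, while Nfkbia, the short feedback inhibitor, stood at 1031 and 1639. The T cell ratios of the 3 were -0.63, -0.47 and -0.18. Of 16 transcription factors tested Cebpd rose from 96.1 to 251 CPM and Runx1, with 212659 bases of introns, fell from 825 to 107. Runx1 also fell in T cells, from 638 to 94.4 CPM. With the T cell ratio subtracted Cebpd had 0.68 and Runx1 -0.20, both under 2-fold.

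Counts in the metabolic and stress lists stand against the 2.16% of all genes that rose and the 8.69% that fell. Hilpda, which guards lipid droplets in hypoxia, rose from 119 to 339 CPM and Mif from 29.1 to 76.3, while Hif1a, with 40260 bases of introns, fell from 761 to 347 and Pfkfb3, with 75084 bases, from 197 to 50.4. They were the 4 of 25 tested in the hypoxia and glycolysis list that passed 2-fold. Their T cell ratios were 0.50 (Hilpda), 0.21 (Mif), 0.16 (Hif1a) and -1.38 (Pfkfb3). With these subtracted Hilpda had 0.94, Mif 0.94 and Pfkfb3 -0.40, all under 2-fold, and after thinning Mif had 0.42. Of 23 antioxidant and iron genes 4 rose and none fell. They were Hmox1 (heme oxygenase 1) at 33.0 to 94.6 CPM, Prdx1 at 27.1 to 82.1, Gclm at 11.3 to 36.1 and Slc40a1, the iron exporter ferroportin, at 111 to 278. Their T cell ratios were 0.92, 0.33, 0.29 and 0.19, and the first 3 were under 2-fold when cells with RNA of other myeloid or NK cells were left out (0.97, 0.92 and 0.78). Fth1, the ferritin heavy chain, stood at 7059 CPM in naive, 41116 in 2 h and 11933 in 3 d neutrophils. Of 19 genes of cell survival 1 passed, Bcl2l1, which fell from 158 to 67.9 CPM with 46475 bases of introns, and Mcl1, on which neutrophil survival depends, stood at 1597 and 2440.2. After thinning Bcl2l1 had -0.97, under 2-fold. None of 11 heat shock genes and none of 11 genes of lipid mediators passed 2-fold. Cell cycle genes summed to 25.6 CPM in naive and 51.7 in 3 d neutrophils, with 3 of 15 reaching 50 UMIs.

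A list of genes described in neutrophils of injured or tumor-bearing tissue held 7 risers of 24 tested and none that fell, against 2.16 and 8.69% of all genes and 4.46 and 0.863% of those with up to 5 kb of introns, with a median log2 ratio of 0.50 against 0.11 over all genes. The median of the same list in T cells was 0.49. Among them were Ccl3, Ccl4, Hilpda, Hmox1 and Prdx1, and Siglecf, a sialic acid receptor known from eosinophils and alveolar macrophages, which rose from 7.39 to 32.7 CPM. Siglecf stood at 5.93 CPM at 2 h, and its 347 UMIs at 3 d came from 9.97% of neutrophils, against 3.81% of naive neutrophils. Naive and 3 d T cells had 1.01 and 0.333%. After thinning, the neutrophil shares, 0.587% (0.071 to 2.10%) in naive and 1.39% (0.944 to 1.96%) at 3 d, had overlapping intervals. Eosinophil markers summed to 4.93 CPM in naive and 7.06 in 3 d neutrophils, 4 of the 6 being at 0 in naive and 2 at 3 d, and Ccr3 was the most abundant. Alveolar macrophage markers summed to 55.2 and 24.7 CPM, with Ear2 the most abundant. Their part in the rise of Siglecf was not tested. Other members of the list did not follow, with Cd274 at 179 and 124 CPM, Vegfa at 95.6 and 75.2, Lgals3 at 609.6 and 549 and Thbs1 at 1948 and 1477.

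Igfbp6 and Steap4 were among the genes furthest up and belong to none of the lists. Igfbp6, a binding protein for insulin-like growth factor 2, stood at 13.8 CPM (9.17 to 19.9) in naive, 29.1 in 2 h and 157 (149 to 164) in 3 d neutrophils, against 0.199 and 1.499 in naive and 3 d T cells. Steap4, a metalloreductase, stood at 54.7, 15.4 and 326 CPM, against 0 and 1.62 in T cells. Both genes were thus higher at 3 d than in either other library, and nearly absent from T cells. In classical monocytes Igfbp6 went from 5.31 to 28.9 CPM and Steap4 from 0.590 to 3.64. Unthinned, UMIs of Steap4 were found in 13.2% of naive and 52.0% of 3 d neutrophils and UMIs of Igfbp6 in 6.45% and 36.2%. Tspo, a mitochondrial membrane protein, stood at 169, 114 and 609.8 CPM, with 162 and 189 in T cells.

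The largest falls were of long genes. Alcam, an adhesion molecule with 197958 bases of introns, stood at 3273 CPM (3194 to 3352) in naive, 111 in 2 h and 98.6 in 3 d neutrophils. Sik3, Chst11, Gab2 and Morrbid, a noncoding RNA that limits expression of the death gene Bcl2l11, fell from 2026 to 68.1, 1720.3 to 58.1, 1249 to 43.8 and 1354 to 45.9 CPM. Cmss1, with 302868 bases of introns, fell from 757 to 0.942 CPM, with 2.43 at 2 h. At 2 h Sik3 stood at 141 CPM, Chst11 at 85.8, Gab2 at 60.4 and Morrbid at 69.1, so that both transplant libraries lay far below naive for these genes. In T cells Cmss1 fell from 1429.8 to 9.99 CPM and Gphn from 793 to 9.24, log2 ratios of -6.17 and -5.38 against -6.13 and -5.37 in neutrophils. Not every such ratio was shared. Sgms2, which makes sphingomyelin, fell from 2692 to 295 CPM in neutrophils and stood at 8.35 and 8.37 in T cells, and Myo1d fell from 683 to 26.9 in neutrophils and stood at 2.59 and 0.250. Both genes were thus under 10 CPM in T cells.

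**Figure D3:**
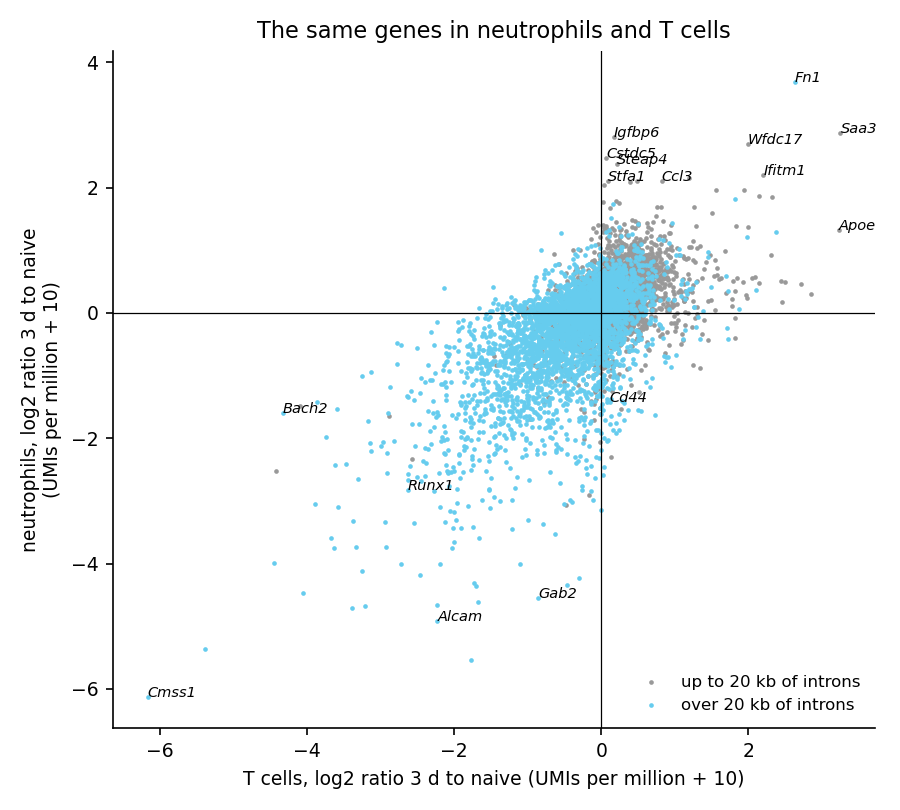
Each point is 1 gene tested in neutrophils, with the log2 ratio of 3 d to naive CPM plus 10 in T cells (horizontal) and in neutrophils (vertical), in blue where introns exceed 20 kb. Cmss1 lies near -6 on both axes, Ifitm1 near 2.2 on both, and Igfbp6, Cstdc5, Steap4 and Stfa1 lie above 2 in neutrophils and near 0 in T cells. In naive and 3 d T cells Igfbp6, Cstdc5, Steap4 and Stfa1 stood at no more than 1.62 CPM, where the added 10 holds the ratio near 0.

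Several rises were matched by markers of other cells. Fn1 (fibronectin), which had the largest log2 ratio of CPM plus 10, went from 6.41 to 202 CPM in neutrophils, from 15.1 to 146 in T cells and from 693 to 2649.7 in classical monocytes. Its UMIs were found in 37.5% of 3 d neutrophils and 36.3% of 3 d T cells, 1 neutrophil holding 349 of the 2149 UMIs. Saa3, a serum amyloid also expressed by macrophages, stood at 145 CPM in 3 d neutrophils and at 89.2 in 3 d T cells. Both genes were among the 3 risers of 12 tested for clearance and matrix, where 2.16% of all genes rose. After thinning, Fn1 was found in 5.86% of 3 d neutrophils and 4.22% of 3 d T cells, and Saa3 in 4.79 and 2.11%. With the T cell ratio subtracted Fn1 had 1.06 and Saa3 -0.39, and with cells that held RNA of other myeloid or NK cells left out they had 2.86 and 2.08. The part of RNA from other cells in these 2 rises was not tested. The 8 macrophage markers summed to 299 CPM in naive and 532 in 3 d neutrophils, with 4 of 7 tested rising, against 2.16% of all genes. Apoe was the most abundant, at 82.3 and 221 CPM, and at 12.1 and 198 in T cells. C1qa, C1qb, C1qc and Ms4a7 were at 0 in naive neutrophils, which allows up to 1.48 CPM at 3 counts (1.82 by the exact interval), and at 26.6, 16.01, 16.2 and 1.51 CPM at 3 d, with C1qa at 35.4 in T cells. Classical monocyte markers summed to 69.0 and 282 CPM, chiefly Fn1, with 1 of 6 rising, and were at 6370 CPM in 3 d monocytes. Markers of nonclassical monocytes summed to 163 and 145 CPM, with Treml4 the most abundant. Those of NK cells summed to 126 and 60.0 CPM, Gzma falling from 94.6 to 41.4. Dendritic cell markers summed to 340.0 and 432 CPM, B cell markers to 71.9 and 49.3 and T cell markers to 21.2 and 16.1. The rule capped Cd79a, Cd79b, Cd3d and Cd3e, and also Ly6c2, Vcan and F13a1. Low sums of B cell, T cell and classical monocyte markers were thus partly set by the choice of cells. Endothelial, epithelial and platelet markers summed to under 30 CPM in both, erythroid markers to 16.3 and 1.22, basophil or mast cell markers to 0.493 and 22.3 and plasmacytoid dendritic cell markers to 2.46 and 7.34. Their part in the ratios of other genes was not tested. With cells that held such RNA left out, which kept 269 naive and 1678 3 d neutrophils, an alternative chosen after seeing the data, the log2 ratios of CPM plus 10 were 2.27 for Ifitm1, 2.76 for Wfdc17, 2.39 for Steap4, 2.99 for Igfbp6, 1.73 for Ccl3 and 2.53 for Cstdc5. Under it 12 named genes no longer passed 2-fold and Ebf1 took the opposite sign. Among the 12 were Cxcl2 (0.81), Stfa2l1 (0.96), Cstdc4 (0.92), Hmox1 (0.97), Prdx1 (0.92), Gclm (0.78), C1qb (0.95) and C1qc (0.88).

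The 2 h library held the other neutrophils of the series. Of 7887 genes tested 402 (5.1%) were at least 2-fold higher at 3 d than at 2 h and 238 (3.02%) lower, in libraries counted with the same release. This comparison and that with naive share the 3 d library. Wfdc17 had a log2 ratio of 3.74, Steap4 of 3.73, Ifitm1 of 2.81, Igfbp6 of 2.09, Tnf of 1.46, Siglecf of 1.42 and Ly6g of 1.30. These genes, named in the naive comparison, were thus higher in this one too, while Ccl3 had 0.10 and Ccl4 -1.31. The named genes are examples and give no measure of how far the 2 comparisons run together. Cxcl3, Mt1 (metallothionein 1), Ngp, Thbs1, Mmp8, Cxcl2, Fth1 and Il1rn were lower, with log2 ratios of -3.85, -3.46, -3.21, -2.17, -2.09, -2.07, -1.78 and -1.66. At 3 d all of these 8 genes except Cxcl2 and Cxcl3 lay within 2-fold of naive on the scale of CPM plus 10. Ngp, at 39.4 and 19.2 CPM, had a log2 ratio of -0.76 on that scale. Without the added 10 its ratio was -1.04, past 2-fold. Scgb1a1, the secretory protein of club cells, took 577 CPM of 2 h neutrophils and 189.7 of 2 h T cells but 6.402 of 3 d neutrophils, so that RNA of epithelial origin was counted in both cell types at 2 h. Its part in the other ratios was not tested.

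**Figure D4:**
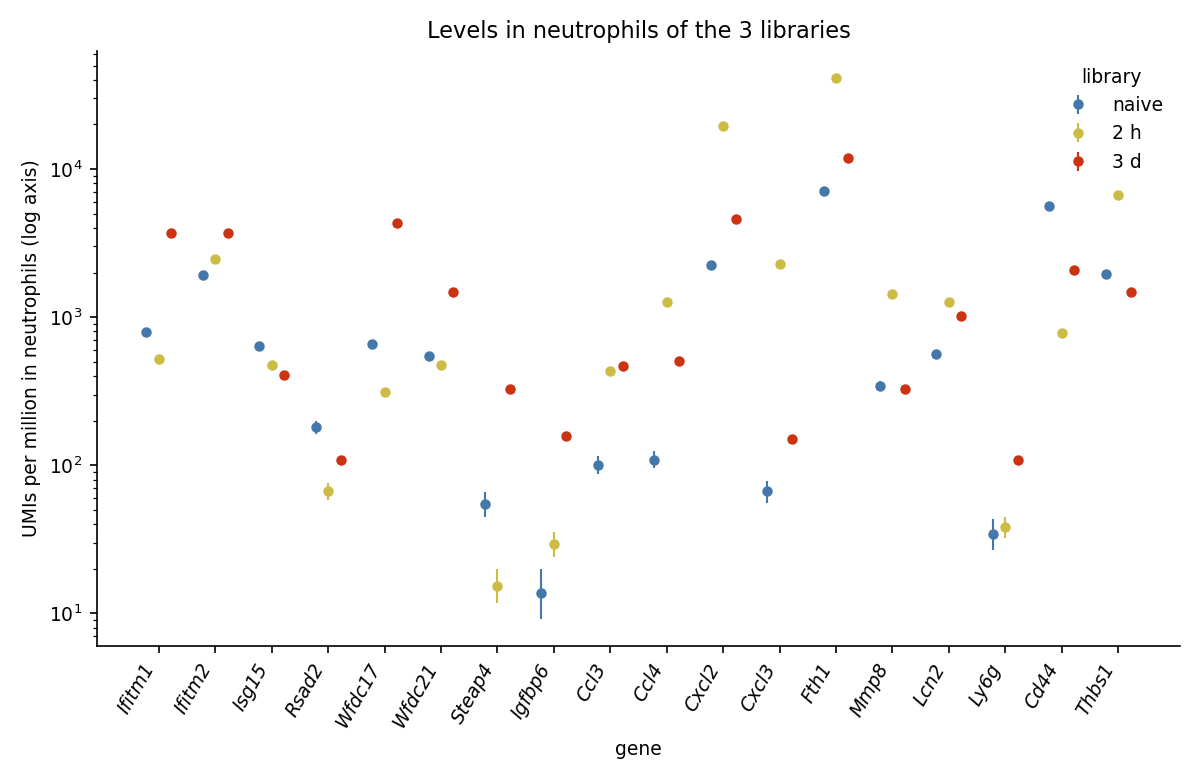
CPM in neutrophils of the naive, 2 h and 3 d libraries (vertical, log axis) for 18 genes (horizontal), with 95% Poisson intervals as bars where they exceed the point. Ifitm1, Wfdc17, Steap4 and Igfbp6 are highest at 3 d, Cxcl2, Cxcl3, Ccl4, Fth1, Mmp8 and Thbs1 at 2 h, and Cd44, Isg15 and Rsad2 in the naive library.

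Neutrophils varied among themselves. The share of S100a8 and S100a9 had quartiles of 4.65 and 12.9% of UMIs in naive and 5.18 and 17.4% in 3 d neutrophils. Cells were ordered by it and cut into a low, a middle and a high group of equal size, at 5.81 and 11.2% in the naive and 6.92 and 15.03% in the 3 d library, with 42 and 168 cells within 0.5 percentage points of a limit. The groups are ranges of a gradient, not cell types. Levels here are CPM outside the 6 rule genes. Lcn2 rose from 179 in the low to 1198 in the high group of naive neutrophils and from 358 to 2307 at 3 d. Ly6g rose from 4.56 to 86.8 and from 25.2 to 262, and Wfdc21 from 257 to 1025 and from 472 to 3176. Since S100a8 and S100a9 served to choose the cells, and the low group holds cells that entered through other rule genes, these gradients are a description of the chosen cells.

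Chemokines of 3 d neutrophils had the opposite order, again as a description. Ccl3 fell from 1345 in the low group to 125 in the high group at 3 d, and from 175 to 71.2 in naive neutrophils. Tnf fell from 626 to 78.8 at 3 d and stood at 74.4 and 71.2 in the same naive groups. In the middle group Tnf stood at 142 in naive and 134 in 3 d neutrophils. Cxcl2 fell from 9035 to 3080.5 at 3 d and stood at 2545 and 2529 in the naive groups. Siglecf fell from 73.6 to 15.01 at 3 d, alongside alveolar macrophage markers from 63.8 to 7.50 and eosinophil markers from 15.1 to 3.75. The ratio of 3 d to naive for Ccl3 was accordingly 2.88 in the low, 1.45 in the middle and 0.73 in the high group on the log2 scale. In the same groups Ifitm1 was higher at 3 d by 1.95, 2.45 and 2.34 and Wfdc17 by 2.53, 2.63 and 2.92. The groups were cut on rule genes and at different limits in each library, so these ratios are a description only. RNA of other cells also ran with the gradient, nonclassical monocyte markers at 313 in the low and 83.4 in the high naive group and 342 and 55.7 at 3 d, and NK cell markers at 337 and 31.3 and 149 and 12.8. Basophil or mast cell markers, with Gata2 the most abundant, stood at 67.3 and 7.50 in the low and high 3 d group. Their part in the gradient was not tested. The median cell held 3760.0 UMIs in the low and 5497 in the high 3 d group.

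**Figure D5:**
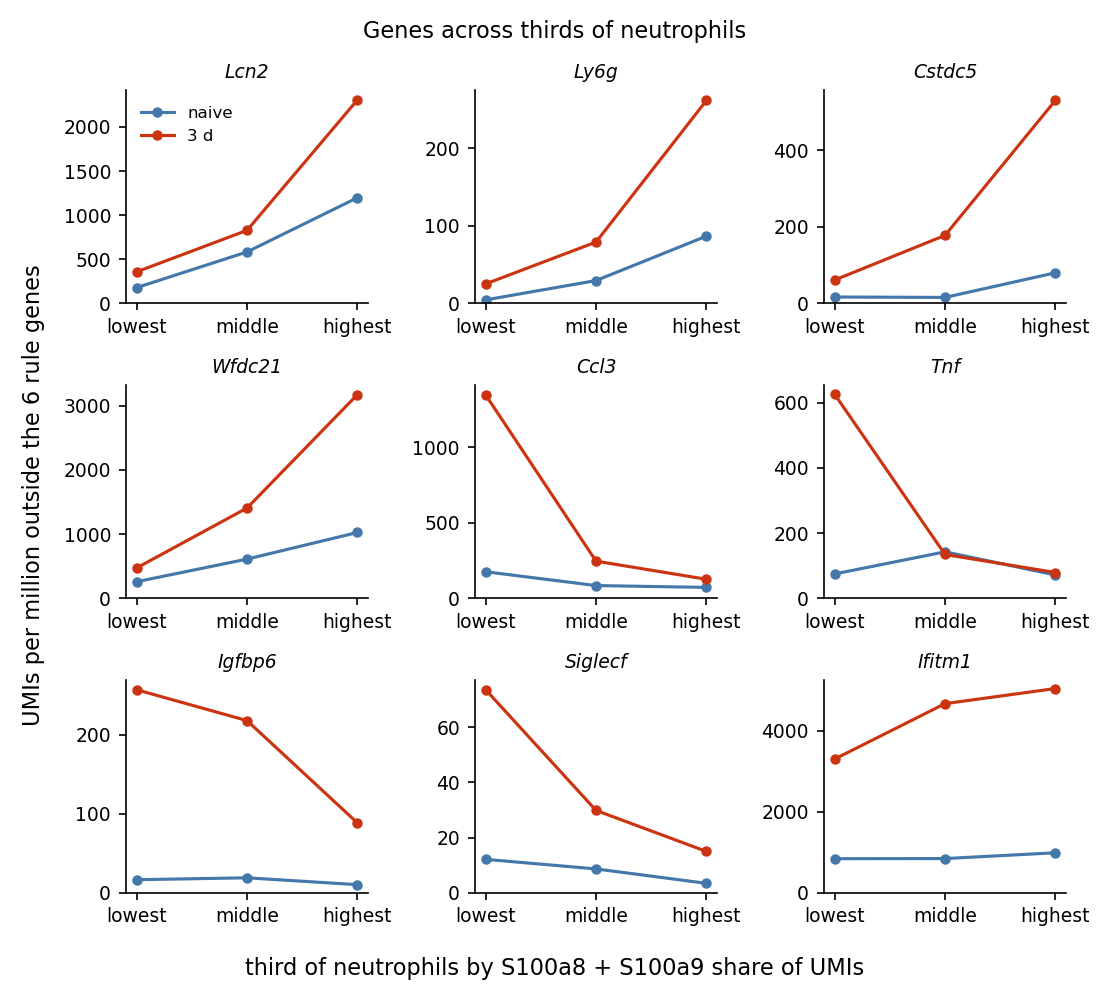
CPM outside the 6 rule genes (vertical axis of each panel) for 9 genes in low, middle and high groups of neutrophils by their S100a8 plus S100a9 share (horizontal), in naive and 3 d libraries, with no replicate error. Lcn2, Ly6g and Wfdc21 climb with the share in both libraries, naive Cstdc5 is high in the high group alone, Ccl3, Tnf, Igfbp6 and Siglecf decline with it at 3 d, and Ifitm1 is above its naive level at 3 d in every group.

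UMIs of Ccl3 and Ccl4 lay in few cells. The 10% of neutrophils with most Ccl3 and Ccl4 held 87.5% of their UMIs in the naive (34 cells), 74.1% in the 2 h and 92.3% in the 3 d library (224 cells). At least 5 UMIs of the pair were found in 6.74% of naive and 10.8% of 3 d neutrophils, and the highest cell held 46 and 447. By the same measure Wfdc17 had 68.5% of its UMIs in the top 10% of naive cells and 35.7% at 3 d. Stefin genes, at 5 or more UMIs, were found in 34.3% of naive and 57.5% of 3 d neutrophils. After thinning, the share of neutrophils with a UMI went from 2.93 to 8.77% for Ccl3 and from 2.64 to 7.16% for Ccl4, so that positive cells were more frequent at 3 d for these genes too, and still a minority.

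Antibody tags gave a readout that the choice of cells did not use, in the transplant libraries alone. The 277 tags, 9 of them isotype controls, carry human gene symbols and are described neither in the labels nor in the methods, so that each is named as the files name it. The 3 d neutrophils held 254717 tag counts, a median of 101 per cell. CD44 made 6106 of every 10000 counts, against 1506 in T cells, 1030.3 in B cells and 2592 in classical monocytes, with a median of 59 counts per neutrophil and 5 per T cell. At 2 h it made 7737 in neutrophils and 1732 in T cells. CD44 tags thus took a larger share in neutrophils than in these other cells. ITGA6 followed with 2413 per 10000 in 3 d neutrophils against 3197 in T cells, but with a median of 22 counts per neutrophil and 14 per T cell, so that the order depends on the measure. Itga6 RNA stood at 5.08 CPM in neutrophils and 91.2 in T cells. LGALS3 made 979 in 3 d neutrophils and 47.6 at 2 h, against 368 and 49.3 in T cells, and Lgals3 RNA stood at 549 and 148 CPM. Tag and RNA of galectin 3 were both higher at 3 d, but the tag also went from 97.2 to 1005.9 in B cells and from 255 to 1695 in monocytes. For CD44 the tag was lower at 3 d than at 2 h while Cd44 RNA was higher. ITGB7 made 417 in 3 d neutrophils against 4772 in T cells, and CD45R, a B cell marker, 20.5 against 2359.7 in B cells. Isotype controls summed to 47.4 per 10000. The panel gave little more, as 251 of the 277 tags had fewer than 10 counts over all 3 d neutrophils. ITGAM had 0 and CD45 1 count, though Itgam RNA stood at 618 CPM, so that a tag without counts was not read as a protein that is absent.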

How the data were processed

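Cells of 3 libraries, 1 per condition, were sequenced as UMI counts per gene and cell. The deposited count matrices were made by the authors with Cell Ranger (7.1.0 for naive, 6.0.0 for both transplant libraries, per the file headers), and per the labels on mm10 with Cell Ranger 6 and Seurat 4. The labels list both a 5′ and a 3′ kit, the study's methods a 3′ kit. As in the study's methods, a cell needed over 200 and fewer than 6000 genes, fewer than 25000 UMIs and a mitochondrial share below 10%.

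The members, gene lists and tests were chosen with earlier results of these data known. UMIs were summed over the neutrophils of a library and given as CPM with exact Poisson intervals, and ratios with exact intervals conditional on the total count. Single-gene log2 ratios without an interval are of CPM plus 10, and genes with at least 50 UMIs over both libraries were tested against a 2-fold limit. T cells held at least 2 UMIs of Cd3d, Cd3e and Cd3g, no Cd79a or Cd79b and under 0.5% of UMIs on the rule genes. B cells and classical monocytes were chosen likewise on their own genes. Named genes were the rule genes, the most abundant member and the 4 with the largest ratio in each list, the 10 highest and 10 lowest ratios before and after subtraction of the T cell ratio, 15 marker genes and defining markers of other cells. Other members named were chosen after their values were seen, and Mx1 and Clec7a were not analysed here. Results for some genes are not reported here. Intron lengths came from GENCODE vM21. Doublets were called with Scrublet in scanpy 1.11.5 and kept in the main analysis. Scripts ran on Python 3.11.15, numpy 2.4.6, scipy 1.17.1, pandas 2.3.3 and matplotlib 3.10.9 and were tested on simulated data.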

Additional observations from a re-analysis of the deposited data

How the results depend on the processing

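No paired analysis was possible because each condition had 1 library, and without replicates no ratio could be set against the spread between mice. Against 166 genes that were 2-fold higher in the main analysis there were 286 with the rule genes at 1% or more, 767 with cells thinned to 500 UMIs, 266 after subtraction of the T cell ratio, 749 with CPM plus 1, 40 with CPM plus 50, 85 among genes with under 5 kb of introns and 27 at a 3-fold limit. Against 668 lower genes there were 336 after subtraction of the T cell ratio, 315 with CPM plus 50, 13 among genes with under 5 kb of introns and 312 at 3-fold. Of all calls 19.9% were higher, 12.7% with the median ratio subtracted and 27.5% with CPM outside rule, ribosomal protein and mitochondrial genes, which put the median of all genes at 0.17. The naive share of 14.1% became 11.7% without the cell filter, 11.6% with the rule genes at 5% or more, 11.4% without cells that held macrophage or lymphocyte RNA and 11.1% without cells that held RNA of other myeloid or NK cells, an alternative chosen after seeing the data. The 3 d share of 26.9% became 24.98, 22.6, 18.4 and 20.2% under the same settings and 29.7% at 1% or more.

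Of 174 named genes 74 passed 2-fold, 27 of them under every other setting that gave them a value, and 14 took the opposite sign in some. Subtraction of the T cell ratio turned Aff3 (2.43), Bach2 (2.74), Gm19951 (2.61), Cmss1 (0.039), Gphn (0.018) and Gzma (0.0070) upward, and Apoe (-1.91), C1qa (-0.28), C1qb (-0.62), C1qc (-0.44), Cxcl2 (-0.27), Fcgr3 (-0.14) and Saa3 (-0.39) downward. Without cells that held macrophage or lymphocyte RNA, Ebf1 had 0.22, Gzma 0.42 and the NK cell markers 0.77, and in the added alternative Ebf1 had 0.25. Classical monocyte markers had -0.069 among genes with under 5 kb of introns. On a centred log ratio per cell the ITGA6 tag was higher in 3 d neutrophils than in T cells, by 0.40 natural log units. The cause of these changes was not tested. After subtraction of the T cell ratio Ifitm1 had 0.0052 and Wfdc17 0.70, both no longer 2-fold. No result met a rule for a closer look, since a group of 1 library has no spread.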
